A study of Chlorocebus aethiops with 8 samples.

Results

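Respiratory complex I (NADH:ubiquinone oxidoreductase) was followed here through every probe set whose single gene symbol begins with NDUF. There were 54 such probe sets for 32 genes, of 52865 probe sets in the whole table. Of the 54, 44 belonged to 26 genes with subunit-type names and 10 to 6 assembly factors (NDUFAF). A further 2 probe sets that name NDUFB8 together with other genes were left out. By their known roles, 24 of the 26 genes encode complex I subunits. NDUFA4 is now assigned to complex IV and NDUFA4L2 is its hypoxia-inducible relative, so both were kept apart.

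Complex I takes electrons from NADH, passes them through flavin and iron-sulfur clusters in its matrix arm to ubiquinone, and pumps protons through its membrane arm. The core subunits carry out this chemistry; those of the matrix arm are encoded in the nucleus and the membrane-arm cores in the mitochondrial genome. Accessory subunits surround the core, and assembly factors join intermediates of the complex without staying in the finished enzyme. The nuclear-encoded mRNAs are translated on cytoplasmic ribosomes, so their presence in polysomes bears on the supply of subunits.

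The RNA came from COS cells, an established African green monkey kidney line, and was hybridised to rhesus macaque arrays, so transcripts were read by probes of a related species. RNA helicase A (RHA, encoded by DHX9) unwinds RNA and is known to promote translation of some mRNAs with structured leaders. Cells received siRNAs to the coding region of human RHA or scrambled siRNAs at 0.5 nM, given in serum-free medium for 4 h followed by 24 h with serum, and were transfected again after being split. Cytoplasmic RNA and RNA of the polysome fractions collected from sucrose gradients gave 4 groups of 2 arrays: cytoplasm under control siRNA, cytoplasm under RHA siRNA, polysomes under control siRNA and polysomes under RHA siRNA. The transfection was transient, every group went through it, and no untransfected sample was analysed here. Whether replicates came from separate cultures is not stated, so the p-values cover array-to-array spread, which may be technical. The arrays numbered 1 and those numbered 2 in the titles are called set 1 and set 2.

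DHX9, the siRNA target, measured 244 and 342 in control cytoplasm (sets 1 and 2) against 130.1 and 254 with RHA siRNA, and 359 and 477 in control polysomes against 97.2 and 269. Each of the 4 comparisons within a set was lower with RHA siRNA, and the mean over both fractions was 49.5% of control; limma did not call it (adjusted p = 1.00; 0.162 after blocking on the set). The sets differed strongly: 28.9% of tested probe sets were higher and 22.4% lower in set 2 than in set 1 after adjustment in limma. One array, cytoplasm under control siRNA in set 1, correlated less with its set (median r 0.949) than the other 7 arrays did (0.967 to 0.980). A 3′ over 5′ measure, the log2 signal of 3′ over 5′ probe sets of 3 control transcripts, ranged from 2.54 to 4.12 across arrays. RNA integrity cannot be told apart here from other sources of this measure. Of the markers fixed for the cell type, 7 of 8 fibroblast genes, 4 of 9 kidney tubule genes and 2 of 3 measured leukocyte genes were above the brightness limit. The fibroblast genes above the limit were VIM, FN1, S100A4, COL1A1, FAP, COL3A1 and THY1. Of the tubule list AQP1, EPCAM, KRT8 and KRT18 were above it, and of the leukocyte list LYZ and CD14. CDH1, LRP2, UMOD, SLC12A1 and SLC34A1 of the tubule list, PTPRC of the leukocyte list and COL1A2 of the fibroblast list were below it. The summed intensity of all 9 tubule markers was 1810 to 2680 in cytoplasmic control RNA and 1490 to 1590 under RHA siRNA. The 3 leukocyte markers summed to 79.0 to 94.8 and 90.0 to 104 in the same groups, the fibroblast markers to 5910 to 6110 and 5530 to 7640, and the part of these markers in the results was not tested.

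Complex I genes were well represented. All 32 genes had a probe set in the brighter 50% of the table (mean log2 above 4.32, an intensity of 19.9), and 48 of the 54 probe sets passed that limit. The 6 that did not were further probe sets of NDUFA2, NDUFAF5, NDUFAF7, NDUFB4, NDUFB6 and NDUFS1. Each gene is described by its brightest probe set. With limma over 26383 tested probe sets, 0 of 48 NDUF probe sets passed an adjusted p of 0.05 in any of 6 contrasts, against a background of 0% in each. With the set as a block in limma the members again gave 0, against a background of 0% in 5 contrasts and 0.00758% for the siRNA effect over both fractions. The lowest adjusted p of a member in limma was 1.00 without the block. With the block in limma it was 0.196, for a further NDUFA6 probe set over both fractions (log2 -0.745). Among the brightest probe sets the lowest adjusted p with the block in limma was 0.246 (NDUFA9, both fractions). At an unadjusted p of 0.05 limma found 1 of 32 NDUF genes in cytoplasm without the block (1.49% of all tested genes) and 6 with it (12.3%). The same counts were 0 (0.673%) and 2 (5.37%) in polysomes, 1 (2.13%) and 4 (12.4%) over both fractions, and 1 (0.218%) and 4 (4.17%) for the change in loading. For polysomal over cytoplasmic RNA they were 1 (0.237%) and 3 (3.89%) under control siRNA and 1 (0.237%) and 1 (4.23%) under RHA siRNA. The differences below are therefore sizes with their errors and none is a called change, but a count of 0 with 2 arrays a group does not show that these genes did not differ.

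In cytoplasmic RNA nearly all subunit genes were higher under RHA siRNA than under control siRNA. The log2 difference was above 0 for 22 of 24 subunit genes, against 56.1% of the 10106 tested genes, and its median was 0.28 against 0.06 over all tested genes. The median was 0.37 in set 1 and 0.17 in set 2, and 18 of 24 subunit genes were above 0 in both sets (29.3% of all tested genes). In 11 of 24 both arrays under RHA siRNA lay above both control arrays, which held for 11.6% of all genes. Below 0 were NDUFS7 and NDUFC1. Leaving out 1 of the RHA siRNA arrays moved the median to 0.64 (without set 2) or 0.035 (without set 1). For the same contrast the 3′ over 5′ measure gave -1.07 in set 1 against -0.27 in set 2 (log2), and its part in the shift of the subunits was not tested.

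In polysomal RNA the same subunit genes were split, with 13 of 24 above 0 (49.7% of all tested genes) and a median of 0.06 (0.00 over all tested genes). The medians of the sets were 0.08 and -0.02. The 3′ over 5′ measure gave 1.17 in set 1 and -0.35 in set 2 (log2) for the polysomal effect, and its part was not tested. Over both fractions 21 of 24 subunit genes were above 0, with a median of 0.19 against 0.03 over all tested genes, and 53.8% of those above 0. In bulk RNA, a change in the number of cells that express a gene cannot be told apart from a change in RNA per cell.

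**Figure D1:**
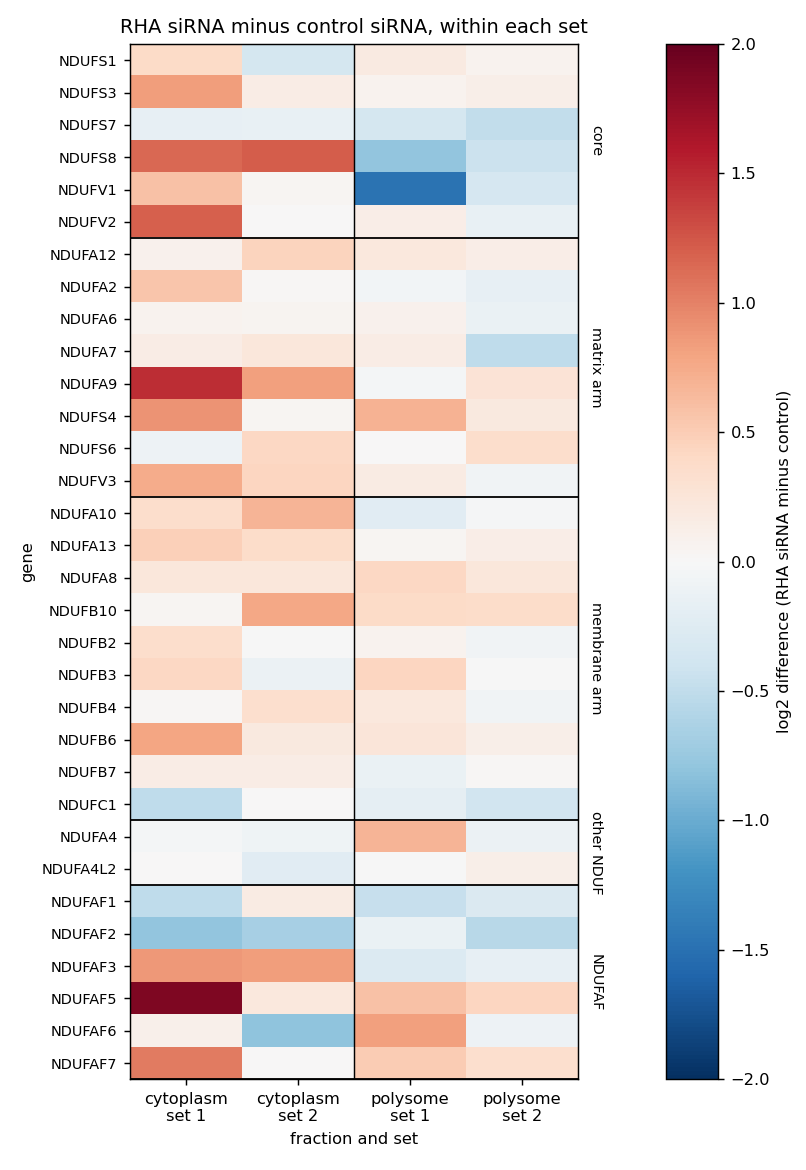
Heat map of the log2 difference of RHA siRNA minus control siRNA (colour scale from -2 to 2) for 32 NDUF genes in rows, grouped by role, with cytoplasm and polysomes of sets 1 and 2 in columns. The cytoplasm columns are mostly red for the subunits, NDUFS8 turns from 1.14 and 1.21 in cytoplasm to -0.79 and -0.43 in polysomes, and NDUFAF2 is below 0 in 4 of 4 columns.

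NDUFS8, a core subunit that carries iron-sulfur clusters next to the ubiquinone site, gave the smallest p of the family in the cytoplasm. Its intensity in cytoplasmic RNA was 324 and 330.1 under control siRNA and 714 and 762 under RHA siRNA. Polysomes held 679 and 502 with control siRNA and 392 and 373 with RHA siRNA. The groups did not overlap in either fraction, and the order was opposite: higher under RHA siRNA in cytoplasm, lower in polysomes. On the log2 scale, cytoplasm averaged 8.35 ± 0.02 with control and 9.53 ± 0.07 with RHA siRNA, and polysomes 9.19 ± 0.31 and 8.58 ± 0.05 (SD, n = 2). NDUFS8 was thus 2.26-fold of control in cytoplasm (log2 1.17, SE 0.31; 1.14 and 1.21 in sets 1 and 2) and 0.655-fold in polysomes (log2 -0.61, SE 0.31; -0.79 and -0.43). The further NDUFS8 probe set, which is dim and close to the limit in some arrays (19.7 and 38.9 in cytoplasmic control RNA), had log2 differences of 0.69 in cytoplasm, where the sets differed in sign (1.57 and -0.20) and the groups overlapped, and -0.93 in polysomes (-1.07 and -0.78). The ID of the brighter probe set ends in _s_at, the array maker's mark for probes common to more than 1 transcript. Adjusted p-values in limma were 1.00 in both fractions, and 0.275 and 0.973 with the block.

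**Figure D2:**
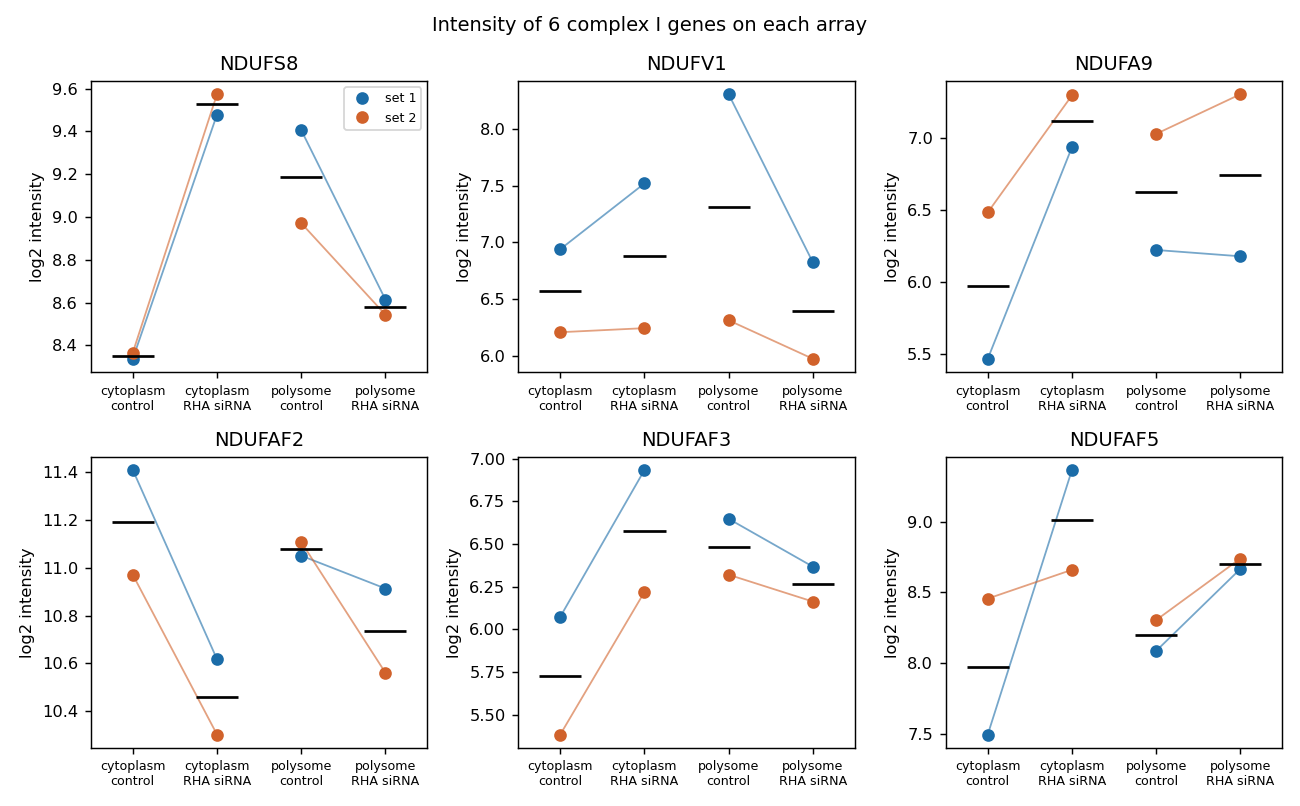
Log2 intensity (y axis, with its own scale in each panel) of 6 genes on each of the 8 arrays, by fraction and siRNA (x axis); points are arrays, colours are the sets, lines join control and RHA siRNA of a set and bars are group means. NDUFS8 is higher under RHA siRNA in cytoplasm and lower in polysomes in both sets, NDUFAF2 is lower and NDUFAF5 higher in all 4 comparisons, and in all 4 groups NDUFV1 is higher in set 1 and NDUFA9 in set 2.

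The other core subunits did not share that pattern as closely. NDUFV1, which binds NADH and the flavin, had an intensity of 123 and 73.9 in cytoplasmic control RNA, 184 and 75.8 under RHA siRNA, 317 and 79.5 in polysomal control RNA and 113 and 62.8 under RHA siRNA. All 4 set 1 arrays lay above all 4 set 2 arrays, and the polysomal log2 difference was -1.48 in set 1 and -0.34 in set 2. NDUFV2, its iron-sulfur partner, had 1401 and 2003 in cytoplasmic control RNA, 3197 and 2021 under RHA siRNA, 1791 and 2313 in polysomal control RNA and 1957 and 2095 under RHA siRNA. By this probe set the cytoplasmic difference of NDUFV2 was 1.19 in set 1 and 0.01 in set 2, so it came from set 1. The second NDUFV2 probe set, dim in set 2 (9.75 to 14.95), had -0.29 and 0.62 in the sets in cytoplasm.

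NDUFS1, the largest iron-sulfur subunit, had intensities of 1848 and 1219 in cytoplasmic control RNA, 2403 and 951 under RHA siRNA, 2309 and 1229 in polysomal control RNA and 2617 and 1293 under RHA siRNA. Its cytoplasmic difference changed sign between the sets (0.38 and -0.36), with a mean of 0.01 that became -0.05 after quantile normalisation. NDUFS3, a subunit of the ubiquinone-binding module, had 953 and 916, then 1700.2 and 1014 in cytoplasm, and 1340.0 and 1102, then 1404 and 1189.5 in polysomes (control first). NDUFS3 was above control in 4 of 4 comparisons within a set, by log2 0.84 and 0.15 in cytoplasm and 0.07 and 0.11 in polysomes.

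NDUFS7, which carries the last iron-sulfur cluster before ubiquinone, was the core subunit below control in 4 of 4 comparisons. It had 570.1 and 429, then 509.9 and 389 in cytoplasm, and 689 and 545, then 540.0 and 385 in polysomes (control first). Its log2 difference was -0.15 (SE 0.36) in cytoplasm and -0.43 (SE 0.36) in polysomes, where the groups did not overlap. The second NDUFS7 probe set had 0.27 in cytoplasm and -0.29 in polysomes, so the sign in cytoplasm was not shared.

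Accessory subunits of the matrix arm were above 0 in cytoplasm for 8 of 8 genes, with a median of 0.28 (0.36 and 0.32 in the sets). NDUFA9, which sits where the arms meet, had the largest value of this group. Its intensity was 44.3 and 89.6 in cytoplasmic control RNA, 123 and 157 under RHA siRNA, 74.8 and 131 in polysomal control RNA and 72.5 and 158 under RHA siRNA. NDUFA9 was 2.21-fold of control in cytoplasm (log2 1.14, SE 0.57; 1.47 and 0.81 in the sets) and 1.08-fold in polysomes (log2 0.12, SE 0.57). NDUFS4, an accessory subunit whose loss is a known cause of Leigh syndrome, had intensities of 1911 and 2509, then 3551 and 2584 in cytoplasm, and 1955 and 2384, then 3174 and 2736 in polysomes (control first). NDUFS4 did not overlap between siRNAs in either fraction, with 1.37-fold of control over both (log2 0.46, SE 0.24), most of it from set 1 (0.80, against 0.12 in set 2). NDUFV3 had 35.2 and 35.03, then 59.0 and 47.3 in cytoplasm, and 36.0 and 41.9, then 40.1 and 39.8 in polysomes. Its log2 difference was 0.59 (SE 0.30) in cytoplasm without overlap and 0.04 in polysomes. The second NDUFV3 probe set did not share the sign in either fraction (-0.07 and -0.32). The other 5 genes (NDUFA2, NDUFA6, NDUFA7, NDUFA12 and NDUFS6) had cytoplasmic values of 0.06 to 0.29 by their brightest probe sets. Further NDUFA6 probe sets had 0.83, -0.66, -0.095 and -0.03 in cytoplasm, and -0.03, -0.83, -0.73 and -0.15 in polysomes. Those of NDUFS6 had -0.30 and 0.08 in cytoplasm, and those of NDUFA2 had 0.35 and 0.23.

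Accessory subunits of the membrane arm were above 0 in cytoplasm for 9 of 10 genes, with a median of 0.21 (0.29 and 0.21 in the sets) and a range of -0.25 to 0.51. NDUFB10 had intensities of 67.0 and 45.9, then 68.6 and 78.2 in cytoplasm, and 47.1 and 54.0, then 61.4 and 69.5 in polysomes (control first). Both RHA siRNA arrays were above both controls in each fraction, and NDUFB10 was 1.31-fold of control over both (log2 0.39, SE 0.24). Its further probe set had 0.14 over both fractions and -0.01 in cytoplasm (-0.39 and 0.38 in the sets), and it overlapped between siRNAs in each fraction. The ID of the brighter NDUFB10 probe set ends in _x_at, and what else its probes may read was not tested. NDUFA8, NDUFA13 and NDUFB6 were likewise above control in 4 of 4 comparisons within a set, as was NDUFA12 of the matrix arm; NDUFA8 had cytoplasmic values of 0.23 in each set. NDUFC1 stood at the low end, with -0.25 in cytoplasm and -0.28 in polysomes, and its intensity of 4502 and 1827 in cytoplasmic control RNA shows how far the sets lay apart. NDUFA4 had values of -0.06 in cytoplasm and 0.28 in polysomes, and NDUFA4L2, dim at 18.4 to 41.4, had -0.11 and 0.05.

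The NDUFAF assembly factors had no common direction. In cytoplasm 3 of 6 were above 0, over a range of -0.73 to 1.04, and in polysomes 3 of 6, from -0.38 to 0.51. NDUFAF5, which hydroxylates an arginine of NDUFS7 during early assembly, had intensities of 180.3 and 351, then 659.6 and 404 in cytoplasm, and 272 and 316, then 406 and 427 in polysomes (control first). It did not overlap in either fraction and was 1.71-fold of control over both (log2 0.77, SE 0.31; 1.23 and 0.32 in the sets), and limma gave an adjusted p of 1.00 (0.303 after blocking). The second NDUFAF5 probe set had 0.64 over both fractions, and the third, below the brightness limit, had -0.11. Most of the cytoplasmic difference of NDUFAF5 came from set 1 (1.87, against 0.20 in set 2), whose control array correlated least with its set. When the set was blocked and the set 2 array of control cytoplasm omitted, the set 1 array was the lone cytoplasmic control, assumed to vary like the other groups; limma then called NDUFAF5 in cytoplasm (log2 1.59, adjusted p = 0.0404) and over both fractions (log2 1.047, adjusted p = 0.039). In that fit 4.36% and 3.62% of all tested probe sets were called, and NDUFAF5 was the only NDUF gene called in those contrasts.

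NDUFAF2, a chaperone that joins a late intermediate in the place later held by NDUFA12, went the other way. Its intensity was 2721 and 2007 in cytoplasmic control RNA, 1571 and 1262 under RHA siRNA, 2121 and 2208 in polysomal control RNA and 1928 and 1510.2 under RHA siRNA. It was lower under RHA siRNA without overlap in both fractions, at 0.602-fold of control in cytoplasm (log2 -0.73, SE 0.34; -0.79 and -0.67 in the sets) and 0.79-fold in polysomes (log2 -0.34, SE 0.34; -0.14 and -0.55). Its adjusted p in limma over both fractions was 1.00, or 0.274 with the block. NDUFAF2 and NDUFS7 were the 2 of 32 NDUF genes below control in 4 of 4 comparisons within a set, a pattern of 9.76% of all tested genes. NDUFA12, whose place NDUFAF2 holds during assembly, had 0.26 in cytoplasm and 0.17 in polysomes. A further 5 of 32 (NDUFS8, NDUFV1, NDUFA2, NDUFA10 and NDUFAF3) were above control in cytoplasm and below it in polysomes in both sets (5.96% of all tested genes), and 0 of 32 had the opposite pattern (3.96%). In all, 9 of 32 were above control in 4 of 4 (10.4% of all tested genes): 7 subunits and the factors NDUFAF5 and NDUFAF7.

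NDUFAF3, which binds early intermediates with NDUFAF4, resembled NDUFS8. Its intensity was 67.3 and 41.7, then 122 and 74.5 in cytoplasm, and 100.2 and 79.9, then 82.5 and 71.6 in polysomes (control first). In cytoplasm the groups did not overlap (log2 0.85, SE 0.41; 0.86 and 0.84 in the sets), and in polysomes they did (log2 -0.22, SE 0.41; -0.28 and -0.16). NDUFAF7, a methyltransferase needed for assembly, had 209 and 462, then 430.3 and 465 in cytoplasm, and 286 and 428, then 408 and 538 in polysomes. Its cytoplasmic difference was 1.04 in set 1 and 0.01 in set 2. The second NDUFAF7 probe set had -0.014 in cytoplasm (0.535 and -0.563 in the sets) and 0.12 in polysomes. The third, below the brightness limit, had -0.09 and 0.30. NDUFAF1, which acts on the membrane arm, had 739 and 399, then 518 and 447 in cytoplasm, and 755 and 542, then 548 and 442 in polysomes, with differences of -0.18 and -0.38. NDUFAF6, needed for early assembly around the membrane core, had 254 and 278, then 273 and 159.7 in cytoplasm, and 256 and 252, then 452 and 234 in polysomes. The sets disagreed in sign for NDUFAF6 in both fractions.

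Set side by side, the subunit median minus the NDUFAF median was 0.10 in cytoplasm (-0.11 in set 1 and 0.08 in set 2), -0.01 in polysomes (-0.11 and 0.11) and 0.03 over both fractions (-0.17 and 0.07). In each of these contrasts the pooled difference was smaller than the gap between the sets, and its sign differed between them. In cytoplasm 22 of 24 subunits but 3 of 6 NDUFAF genes were above 0, a contrast in counts that was not tested. It did not extend to the assembly factors without an NDUF name, of which 10 of 11 were above 0 in cytoplasm.

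The change in polysome loading was taken as the polysomal minus the cytoplasmic siRNA effect, which is relative to other RNAs because every array received 25 ng of RNA and arrays had similar medians. It was below 0 for 20 of 24 subunit genes, against 53.2% of all tested genes, with a median of -0.24 (-0.24 in set 1 and -0.21 in set 2) against -0.04 over all tested genes. In both sets 14 of 24 were below 0 (28.2% of all tested genes). By their brightest probe sets the core subunits had a median of -0.51, and 5 of 6 were below 0 in both sets. The exception was NDUFS1 (-0.20 and 0.43). The second, dimmer NDUFV2 probe set had a loading change of 0.38 in set 1 and -0.82 in set 2. The matrix-arm and membrane-arm accessory subunits had medians of -0.23 and -0.15. At least 2-fold lower were 3 of 24 subunit genes, NDUFS8, NDUFV1 and NDUFA9, and the factor NDUFAF3 (3.03% of all tested genes), and 0 of 32 were at least 2-fold higher (0.455%). The 3′ over 5′ measure had a loading change of 2.25 (log2) in set 1 and -0.08 in set 2. Without the RHA siRNA array of cytoplasm in set 2 the median was -0.61, and without that of set 1 it was -0.009.

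NDUFS8 had the largest change in loading of the family, at log2 -1.78 (SE 0.44; -1.93 and -1.64 in the sets), or 0.290-fold. Its further probe set gave -1.61, with -2.64 in set 1 and -0.58 in set 2. Limma gave an unadjusted p of 0.00562 (0.000833 after blocking) and an adjusted p of 1.00 (0.967 after blocking). NDUFAF3 and NDUFA10, an accessory subunit of the membrane arm, had the next smallest p among the lower values, with -1.07 (SE 0.58; -1.14 and -0.99) and -0.64 (SE 0.49; -0.57 and -0.71); its second probe set had 0.04. NDUFV1 had -1.22 (SE 1.11), of which set 1 gave -2.07 and set 2 -0.38, and NDUFA9 -1.03 (SE 0.80; -1.51 and -0.54). In set 2, the brighter NDUFS8 probe set and NDUFAF3 had values near those of set 1, while those of NDUFV1 and NDUFA9 were smaller.

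The NDUFAF genes did not share a direction of loading: 4 of 6 were below 0, with a median of -0.16 (-0.24 in set 1 and 0.18 in set 2). NDUFAF6 had the highest value of all members, 0.71 (SE 0.63; 0.72 and 0.69), followed by NDUFAF2 with 0.39 (SE 0.47; 0.66 and 0.12) and NDUFA4 with 0.34 (0.71 and -0.03). The subunit median minus the NDUFAF median was -0.09 (-0.002 in set 1 and -0.39 in set 2). Across the 32 genes the loading changes of the sets, which share no array, had a Pearson's r of 0.47, and across the 10106 tested genes 0.07. Both are descriptions over genes of the same arrays. The r of the 32 genes includes NDUFS8 (-1.93 and -1.64), which lay far from most members, and was not recomputed without it.

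**Figure D3:**
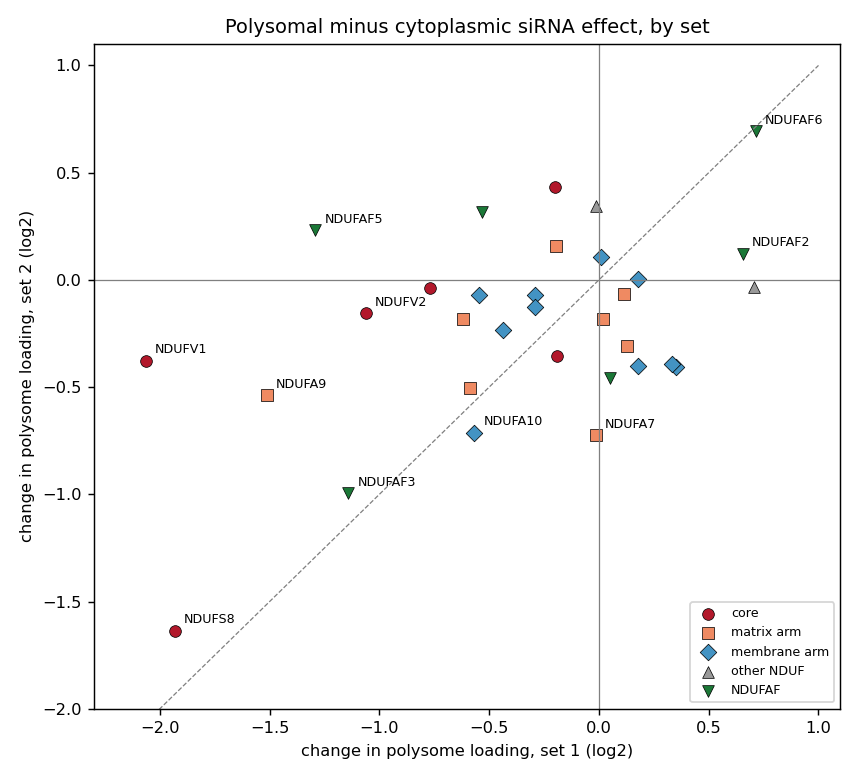
Change in polysome loading (log2, polysomal minus cytoplasmic siRNA effect) in set 1 (x axis) and set 2 (y axis) for 32 NDUF genes, with colour and shape for the role; the dashed line marks equal values. NDUFS8 (-1.93 and -1.64) and NDUFAF3 (-1.14 and -0.99) lie near the line at the low end and NDUFAF6 (0.72 and 0.69) at the high end. NDUFV1 and NDUFA9 lie further below 0 in set 1 than in set 2. NDUFAF5 lies below 0 in set 1 (-1.29) and above 0 in set 2 (0.23).

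The loading change rests on how the fractions compared under each siRNA. Under control siRNA, polysomal over cytoplasmic RNA was above 0 for 20 of 24 subunit genes (61.8% of all tested genes), with a median of 0.16 (0.03 and 0.27 in the sets) against 0.08 over all tested genes. The core subunits were above 0 in both sets for 6 of 6 genes (35.4% of all tested genes), with a median of 0.34. The smallest p among the higher values belonged to NDUFS8 (log2 0.84, SE 0.31; 1.07 and 0.61), NDUFAF3 (0.76, SE 0.41; 0.57 and 0.94) and NDUFA9 (0.65, SE 0.57; 0.76 and 0.55). NDUFV1 had 0.74, with 1.37 in set 1 and 0.11 in set 2. For the same contrast the 3′ over 5′ measure gave -1.53 in set 1 and 0.32 in set 2 (log2), and its part was not tested. The low end held NDUFA4 (-0.35), NDUFA4L2 (-0.32) and NDUFB10 (-0.14). In the blocked fit that omits control cytoplasm of set 2, limma called the dimmer NDUFS8 probe set in this contrast (log2 1.79, adjusted p = 0.0269), together with 2.84% of all tested probe sets.

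Under RHA siRNA, polysomal over cytoplasmic RNA was above 0 for 5 of 24 subunit genes in the mean of the sets (52.0% of all tested genes), for 5 in set 1 and for 15 in set 2, with 8 below 0 in both sets. It had a median of -0.07 (-0.27 and 0.04 in the sets) against 0.02 over all tested genes. The smallest p among the lower values belonged to NDUFS8 (log2 -0.95, SE 0.31; -0.86 and -1.03), NDUFA10 (-0.44, SE 0.35) and NDUFV3 (-0.40, SE 0.30). Both polysomal arrays lay below both cytoplasmic ones for each of these 3 and for 4 of 24 subunit genes in all, against 7.63% of all tested genes. NDUFAF6 (0.64, SE 0.45), NDUFS1 (0.28, SE 0.63) and NDUFAF2 (0.28, SE 0.34) had the highest values. The comparisons under each siRNA share arrays with the siRNA effects above, so they restate the loading change from its other side.

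**Figure D4:**
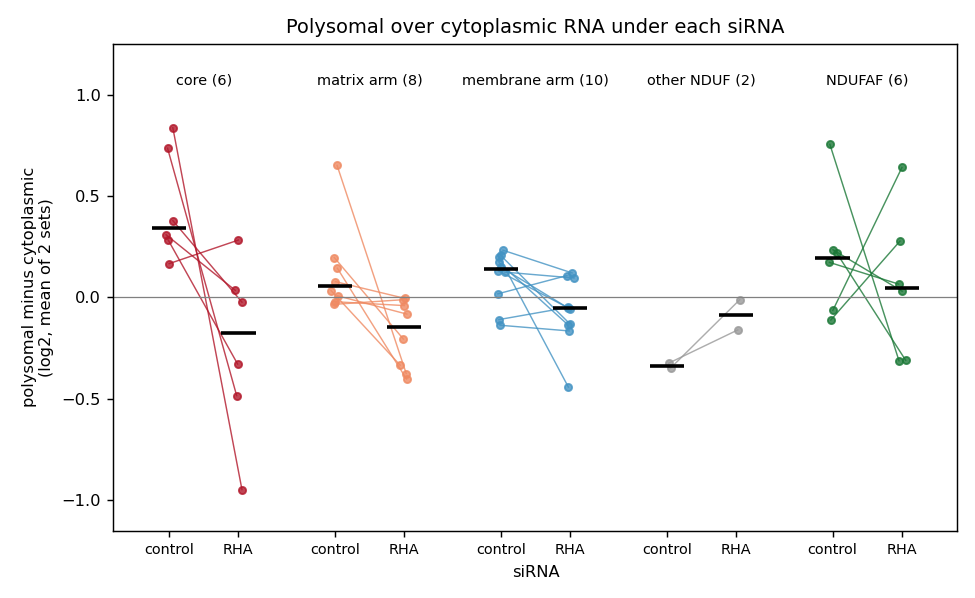
Polysomal minus cytoplasmic log2 intensity (y axis, mean of 2 sets) under control and RHA siRNA (x axis) for the 32 NDUF genes by role, with the number of genes in brackets; points are genes, lines join a gene and bars are medians. The core median goes from 0.34 to -0.18, the matrix-arm median from 0.06 to -0.14 and the membrane-arm median from 0.14 to -0.05, while the lines of the NDUFAF genes cross.

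Other genes of the pathway were read from fixed lists. Of 12 complex I assembly factors without an NDUF name, 11 were tested and 0 passed in limma in any contrast. In cytoplasm 10 of 11 were above 0, with a median of 0.27. ECSIT, a factor of the membrane-arm assembly complex, had 0.76 in cytoplasm (0.78 and 0.73 in the sets) and 0.59 over both fractions (adjusted p in limma 1.00; 0.231 after blocking). The loading change of this list had a median of -0.19, with DMAC2 at -0.996 (-1.40 and -0.59). Nuclear-encoded subunits of complexes II to V (27 tested, 0 passed in limma) had medians of 0.26 in cytoplasm, -0.18 in polysomes and -0.31 in the loading change, with 20, 8 and 6 of 27 above 0. ATP5F1B, the catalytic subunit of ATP synthase, had 1.56 in cytoplasm and -1.98 in loading, and COX7A2, a subunit of complex IV, had -0.89 in cytoplasm and -0.90 in polysomes. In set 1 the medians of complexes II to V were 0.24 in cytoplasm and -0.42 in loading, and in set 2 they were 0.03 and -0.06; their difference from complex I was not tested. Regulators of mitochondrial gene expression (7 tested, 0 passed in limma) had a median of 0.01 in cytoplasm and 0.27 in loading; GABPA had 0.39 in cytoplasm and 0.61 in polysomes, and NRF1 -0.38 in cytoplasm.

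Between the sets, limma called 9 of 32 NDUF genes lower (22.4% of all tested probe sets) and 1 higher (28.9%) in set 2. NDUFS6 (log2 -1.48, adjusted p = 0.000472), NDUFV1 (-1.21, adjusted p = 0.00361), NDUFA13 (-0.99, adjusted p = 0.00174) and NDUFS1 (-0.97, adjusted p = 0.00317) were among those lower in limma, and NDUFA9 was the higher one (0.83, adjusted p = 0.00746). NDUFS8 differed by -0.095 (adjusted p in limma 0.665) and NDUFAF5 by 0.14 (adjusted p in limma 0.685).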

How the data were processed

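Intensity values of 8 arrays on a linear scale were used as deposited; per the submitters' processing notes GCOS and RMA were used, with no version or role given, and other steps are not given in the sources used here. Array medians of 19.3 to 20.8 were taken as a sign of normalised data. Values were put on the log2 scale, and the 26383 brighter of 52766 non-control probe sets were tested. Limma 3.58.1 (R 4.3.3; lmFit, eBayes, two-sided) fitted 4 groups with no further term to all probe sets, and Benjamini-Hochberg adjusted p-values covered all of them. On simulated data the fits recovered the size of added shifts, but without the block limma called none of them, and with the block it called only some and none of those in loading. A count of 0 therefore does not show that genes did not differ. Gene symbols come from the platform annotation. Arrays give no read depth, and their number limits the precision.

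Members, lists and naming rule were chosen with earlier results of these data known. Named with values were the core subunits, each NDUFAF gene and, per contrast and direction, the 3 NDUF genes with the smallest p; NDUFA12, NDUFC1 and others outside it were named after their values were seen. Deviations of same-numbered arrays from their group means correlated at 0.68 to 0.868 between groups, which the labels do not explain, so sets are given as a batch and a block. Alternatives covered the block, the filter, quantile normalisation, an offset of 16, the mean of a gene's probe sets, an intensity trend, the arrays fitted and each array left out.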

Additional observations from a re-analysis of the deposited data

Results flagged for a closer look

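The siRNA effect was above 0 in cytoplasm and below 0 in polysomes in both sets for 5 of 32 NDUF genes, against 5.96% of all tested genes. Their changes in loading (log2) were -1.78 for NDUFS8, -1.22 for NDUFV1, -1.07 for NDUFAF3, -0.64 for NDUFA10 and -0.40 for NDUFA2. The test of the difference between the fractions did not pass for any of these 5 genes (adjusted p in limma 1.00 for each). The effect in cytoplasm of set 2 was 0.04 for NDUFV1 and 0.03 for NDUFA2, and that in polysomes of set 2 was -0.03 for NDUFA10, so these signs rest on small values.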

How the results depend on the processing

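With 2 arrays a group, precision is limited, and dim probe sets near the brightness limit are least certain. The replicate block left 0 NDUF probe sets called in each of the 6 contrasts and the subunit median at 0.28 in cytoplasm and -0.24 for loading, since it changes the errors and not the fitted differences. With the mean over a gene's probe sets the subunit median was 0.12 over both fractions and -0.31 for loading, the NDUFAF median was 0.15 for polysomal over cytoplasmic RNA under RHA siRNA, and NDUFS7 in cytoplasm (0.06) and NDUFAF7 in loading (0.012) changed sign. With quantile normalisation the medians in cytoplasm were 0.187 for the subunits and 0.095 for the NDUFAF genes. The NDUFAF median under control siRNA was then 0.011, and NDUFS1 in cytoplasm (-0.054) and NDUFAF6 over both fractions (-0.08) changed sign. Except in these cases, the filter, offset, mean and quantile alternatives kept the direction of the genes named by the rule; genes named outside it were not recomputed, and the cause was not tested.

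Leaving out 1 array without the block lets the difference between the sets enter the contrast. The subunit median then ranged from 0.035 to 0.64 in cytoplasm, -0.10 to 0.18 in polysomes, 0.045 to 0.31 over both fractions, -0.61 to -0.009 for loading, -0.083 to 0.43 between fractions under control siRNA and -0.39 to 0.17 under RHA siRNA. The NDUFAF median ranged from -0.22 to 0.069 in polysomes, -0.027 to 0.32 over both fractions, -0.22 to 0.06 for loading and, between fractions under control siRNA, -0.01 to 0.21. Subunit minus NDUFAF medians ranged from -0.07 to 0.41 in cytoplasm, -0.55 to 0.21 for loading, -0.29 to 0.45 under control siRNA and -0.41 to 0.081 under RHA siRNA. In cytoplasm the ranges that crossed 0 were -0.62 to 0.27 for NDUFAF1, -0.74 to 0.039 for NDUFAF6, -0.045 to 1.098 for NDUFAF7, -0.66 to 0.68 for NDUFS1, -0.36 to 0.053 for NDUFS7 and -0.33 to 0.95 for NDUFV1. In polysomes they were -0.12 to 0.83 for NDUFAF6, -0.38 to 0.64 for NDUFS1, -0.052 to 0.23 for NDUFS3, -1.91 to 0.086 for NDUFV1 and -0.19 to 0.18 for NDUFV2. Over both fractions they were -0.23 to 0.24 for NDUFAF6, -0.27 to 0.40 for NDUFS1 and -0.80 to 0.20 for NDUFV1. For loading they were -0.21 to 0.88 for NDUFA4, -0.65 to 0.24 for NDUFAF1, -0.68 to 0.47 for NDUFAF7 and -0.55 to 0.79 for NDUFS1. Under control siRNA they were -0.81 to 0.11 for NDUFA4, -0.79 to 0.14 for NDUFA4L2 and -0.41 to 0.14 for NDUFB10, and under RHA siRNA -0.39 to 0.95 for NDUFS1.

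A pair of alternatives chosen after seeing the data combined the replicate block with leaving out 1 cytoplasmic control array. Without that of set 2, 1 NDUF probe set was called in cytoplasm, 1 over both fractions and 1 between fractions under control siRNA. The subunit minus NDUFAF median was then -0.10 in cytoplasm and the NDUFAF median 0.43 under control siRNA, and NDUFAF6 in cytoplasm (0.007) and NDUFAF1 (0.073) and NDUFS1 (-0.13) in loading changed sign. Without that of set 1, loading had a subunit median of -0.31, an NDUFAF median of 0.15 and a difference of -0.46, and under control siRNA the NDUFAF median was -0.11 and the difference 0.34. NDUFAF1 (0.10), NDUFS1 (-0.23) and NDUFV1 (-0.013) in cytoplasm, NDUFAF6 (-0.17) and NDUFS1 (-0.053) over both fractions, NDUFAF5 (0.02) and NDUFAF7 (0.28) in loading and NDUFB10 (0.23) under control siRNA then changed sign.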
